A study of Mus musculus with 6 samples.

Results

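The TAM receptors and their bridging proteins were examined in mouse hippocampus as 7 genes, namely the receptors Mertk, Axl and Tyro3, their ligands Gas6 and Pros1, the bridging protein Mfge8 and the engulfment receptor Megf10. They were chosen by name, from their known part in the uptake of dying cells and synapses, and are 7 of the 15388 genes in the deposited table. All 7 passed the filter on low values, which left 15343 genes tested. RNA came from Cx3cr1-cre/ERT2+; NuTRAP+ mice, males and females about 3 months old per the study's methods, all injected with tamoxifen to switch on a GFP-tagged ribosomal protein in Cx3cr1-expressing cells. The hippocampus of animals 201, 207 and 208 each gave 1 Input library, from cleared homogenate, and 1 Positive library, from ribosomes pulled down with anti-GFP antibody by translating ribosome affinity purification (TRAP). The 2 groups therefore differed in fraction alone and shared genotype, treatment and animals. The Cx3cr1 promoter is active in microglia, the resident phagocytes of the brain, and also in macrophages at its borders, so both could carry the tag. Animals without Cre or without tamoxifen were not analysed here.

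Uptake of a dying cell or a marked synapse begins when phosphatidylserine, a lipid normally held on the inner face of the membrane, appears on the outside. Gas6 and protein S bind this lipid with a Gla domain, which works only after vitamin K-dependent carboxylation of its glutamates, and bind a TAM receptor tyrosine kinase on the phagocyte with their other end. Mfge8 bridges the same lipid to integrins of the alpha v class, while Megf10 is a receptor of its own, best known from the pruning of synapses by astrocytes. In brain, Mertk and Axl are associated with microglia, Tyro3 with neurons and myelin, and Mfge8 and Megf10 with astrocytes.

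Libraries held 14879734 to 17757918 reads, and values are given as scaled reads, that is the reads of a library over its size factor. All 8 markers of microglia and all 6 of border macrophages were higher in Positive, and all 8 of oligodendrocytes, all 6 of oligodendrocyte precursors and all 6 of choroid plexus were lower, by the quasi-likelihood test of edgeR with an adjusted p-value under 0.05. Of the border macrophage markers, Pf4, Lyve1 and Ms4a7 averaged 10.7, 18.4 and 15.2 scaled reads in Input. They passed the filter at 20 scaled reads through Positive alone, so the filter set their direction. The summed level of the 6 border macrophage markers was 165.1 to 210.1 scaled reads in Input, and 2387, 4538 and 2026 in the Positive libraries of animals 201, 207 and 208. Of 10 endothelial markers 9 were higher in Positive, and their summed level went from between 2204 and 2549 in Input to 10242, 8166 and 5151 in the 3 Positive libraries in the same order. Astrocyte markers were split, with 1 higher and 2 lower of 8 (1 to 7 called when a library was left out), and their summed level lay between 58855 and 70589 scaled reads in the 6 libraries. Of the 3 Positive libraries, that of animal 208 was the lowest in the summed markers of every cell type examined but neurons. Calls of the 7 genes that turned on it are given with and without it. In bulk libraries of this kind, fewer cells of a type and less RNA per cell cannot be told apart. The summed neuronal markers were 84724 to 96968 scaled reads in Input and 91642 to 108239 in Positive. Neither the neuronal nor the astrocyte sum was thus clearly lower in Positive. Slc1a2 was the largest part of the astrocyte sum and went from a mean of 31134 scaled reads in Input to 38100 in Positive. The median log2 fold change of the 8 astrocyte markers was -0.26, and that of the study's 138 astrocyte genes tested was -0.42. The paper describes markers of other cell types as mostly depleted in this fraction. The part of untagged cells in Positive was not measured. Levels and shares below describe the libraries, not the tagged cells alone.

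In the edgeR test 6 of the 7 genes were called, 3 higher and 3 lower in Positive, against a background of 46% of all genes tested (24% higher and 22% lower). The scaled reads of the 2 fractions did not overlap for the same 6 genes, against 56.5% of all genes tested (28.9% all higher and 27.6% all lower). A call alone was thus common, and the size of each change is given gene by gene. Mertk and Pros1 had the large changes and Gas6 a small rise, Tyro3, Mfge8 and Megf10 fell by 0.47, 0.54 and 0.50 on the log2 scale, and Axl was not called. The median log2 fold change of the 7 genes was 0.19, the value of Axl, beside -0.01 over all genes tested, and it was 0.34 without the Positive library of animal 208.

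**Figure D1:**
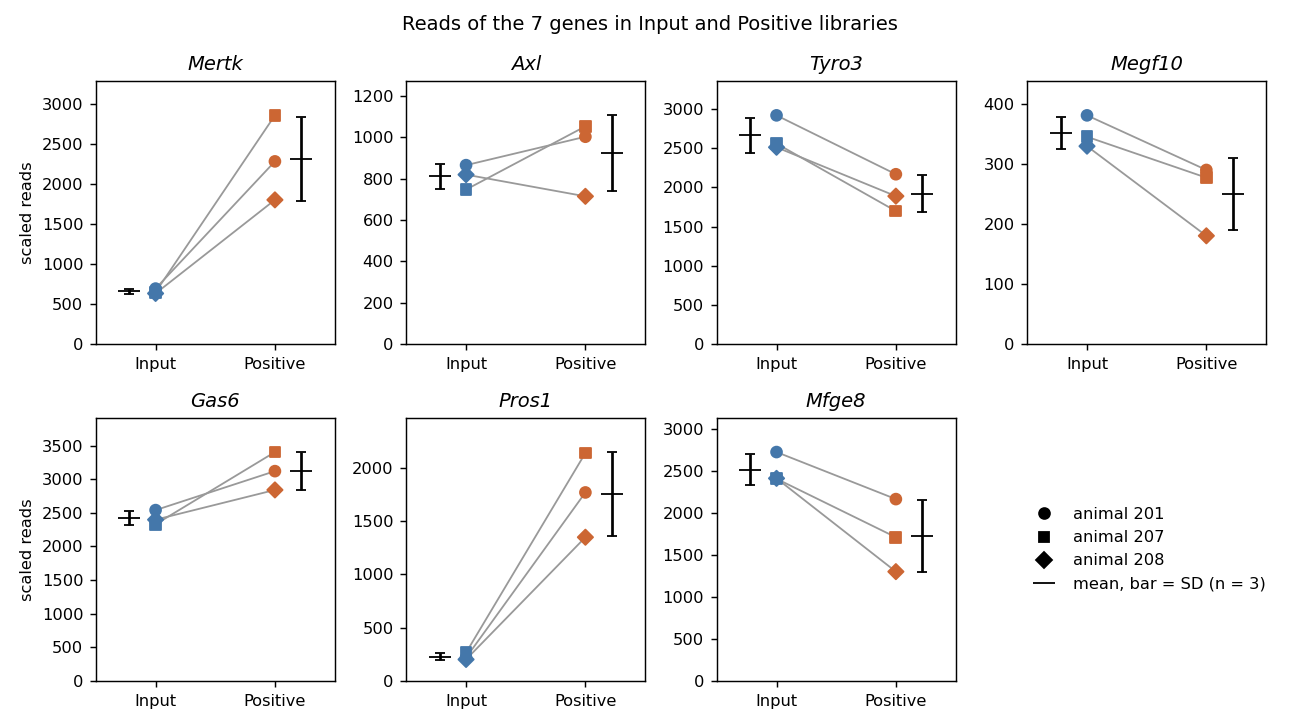
Scaled reads (y axis, from 0) of each gene in the Input and Positive libraries (x axis), with the 2 libraries of an animal joined by a line and the mean ± SD of n = 3 drawn beside the points. Mertk and Pros1 rise steeply in all 3 animals, while the lines of Axl cross and that of animal 208 falls.

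Promoter sequence is printed for 3 of the genes, chosen by their fold changes. Mertk and Pros1 rose most, and Mfge8 had the lowest fold change, close to those of Megf10 and Tyro3. The lines give the 250 bases upstream of the RefSeq start site in GRCm38.p6, 5′ to 3′ on the strand of the gene, at chr2:128698665-128698914 (plus) for Mertk, chr16:62854057-62854306 (plus) for Pros1 and chr7:79149061-79149310 (minus) for Mfge8. Capitals mark the letters GAGGAA, the core bound by the myeloid factor PU.1, and GGGCGG, the GC box, each on either strand.
Mertk: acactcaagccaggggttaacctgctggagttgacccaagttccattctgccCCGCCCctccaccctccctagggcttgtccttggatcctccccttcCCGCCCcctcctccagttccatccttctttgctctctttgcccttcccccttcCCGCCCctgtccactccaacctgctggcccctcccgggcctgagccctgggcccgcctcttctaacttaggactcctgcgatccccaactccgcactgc
Pros1: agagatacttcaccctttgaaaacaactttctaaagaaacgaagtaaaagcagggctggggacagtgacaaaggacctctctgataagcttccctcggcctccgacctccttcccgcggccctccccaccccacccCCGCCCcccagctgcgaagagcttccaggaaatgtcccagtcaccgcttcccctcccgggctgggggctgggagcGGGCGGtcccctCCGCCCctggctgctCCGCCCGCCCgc
Mfge8: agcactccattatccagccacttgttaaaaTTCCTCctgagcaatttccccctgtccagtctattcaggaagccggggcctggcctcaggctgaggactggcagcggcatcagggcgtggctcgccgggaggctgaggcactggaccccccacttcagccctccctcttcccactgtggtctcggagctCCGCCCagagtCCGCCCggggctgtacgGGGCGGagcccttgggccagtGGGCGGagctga
The GC box was found 3 times in the window of Mertk, 5 times in that of Pros1, where 2 matches on the reverse strand overlap, and 4 times in that of Mfge8, and 32.7% of the 32851 mouse promoters of this length held at least 1. GAGGAA was found in the window of Mfge8, once and on the reverse strand, and not in those of Mertk and Pros1, while 23.3% of all promoters held it. The windows of Axl, Tyro3 and Gas6 were scanned as well, and of these only that of Axl held GAGGAA, with 1 match. AGGTCA, the half-site of nuclear receptors, was in none of the windows printed or scanned and in 14% of all promoters. A match or its lack in this window describes the letters alone.

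Among the receptors, Mertk is the one most tied to phagocytosis by macrophages and microglia, where it recognizes cells through Gas6 or protein S. Mertk (ENSMUSG00000014361, chr2:128698956-128802894 of mm10, plus strand) had 695.8, 651.6 and 635.1 scaled reads in the Input libraries of animals 201, 207 and 208 and 2287, 2863 and 1805 in their Positive libraries. The lowest Positive library was thus above the highest Input library, and the spread was wider in Positive. Its mean rose from 660.8 ± 31.4 to 2318 ± 529 (SD, n = 3), or 3.51-fold and 1.81 ± 0.14 (SE) on the log2 scale, and had an adjusted p-value of 2.73e-07 in the edgeR test. Within the animals the log2 ratio was 1.72, 2.13 and 1.51. Animal 207 had the steepest rise and also the highest microglial and border macrophage sums in Positive. The microglial sum was 4393 to 4769 scaled reads in Input and 106006, 128003 and 86823 in the Positive libraries of animals 201, 207 and 208. The part of either cell type in the value was not tested. Without the Positive library of animal 208 the log2 fold change was 1.96.

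Axl, a receptor that binds Gas6 and is known for its induction in inflamed tissue, behaved differently. Axl (ENSMUSG00000002602, chr7:25757273-25788705, minus strand) had 865.1, 747.1 and 819.3 scaled reads in the Input libraries and 1002, 1053 and 714.5 in the Positive libraries. The fractions overlapped, since the lowest and the 2 highest of the 6 values were all in Positive, with animal 208 lowest. The mean was 810.5 ± 59.5 in Input and 923.2 ± 182.5 in Positive, a log2 fold change of 0.19 with a 95% interval of -0.09 to 0.47 and an adjusted p-value of 0.25 (edgeR). The interval leaves room for a small rise or none, but its upper end lies below the fold change of Mertk. The log2 ratio was 0.21 and 0.49 in animals 201 and 207 and -0.20 in animal 208. The result turned on 1 library, since without the Positive library of animal 208 the log2 fold change was 0.34 and the edgeR adjusted p-value 0.00629. Among the Positive libraries, that of animal 208 was also the lowest in the summed markers of every cell type examined but neurons. These were microglia, border macrophages, astrocytes, oligodendrocytes and their precursors, endothelial and mural cells, fibroblasts and choroid plexus. In the summed neuronal markers it was the highest. Whether any of these sums is linked to the value of Axl was not tested.

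Tyro3 binds both ligands and is the TAM receptor of neurons. Tyro3 (ENSMUSG00000027298, chr2:119797733-119818104, plus strand) had 2919, 2559 and 2512 in the Input and 2168, 1698 and 1889 scaled reads in the Positive libraries. Every Positive library was below every Input library, and all 3 animals showed the decrease. The mean of 2663 ± 223 in Input went to 1918 ± 236 in Positive, which was 72% of Input, with a log2 fold change of -0.47 ± 0.10 and an adjusted p-value of 0.0017 (edgeR). Tyro3 stands in the study's cell-sorting list for oligodendrocytes, where 118 of the 183 genes tested had a lower fold change and 64 a higher one, and the median of that list was -0.78. Of 8 neuronal markers, 2 were higher and 0 lower in Positive.

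Megf10, a transmembrane receptor with epidermal growth factor-like repeats, was the lowest of the 7 genes per length of transcript in both fractions. Megf10 (ENSMUSG00000024593, on chromosome 18) had 381.5, 345.8 and 330.1 scaled reads across the Input libraries and 290.5, 277.6 and 180.7 across the Positive ones. The groups did not overlap, but the library of animal 208 lay well below the other 2 Positive libraries. The mean went from 352.5 ± 26.3 to 249.6 ± 60.01, a log2 fold change of -0.50 ± 0.17 with an adjusted p-value of 0.0268 (edgeR). This was the weakest of the 6 calls. It was lost without the Positive library of animal 208 (log2 fold change -0.31, adjusted p-value 0.0567 by edgeR), and likewise without the Input library of animal 201 (0.0943) or 207 (0.0613).

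**Figure D2:**
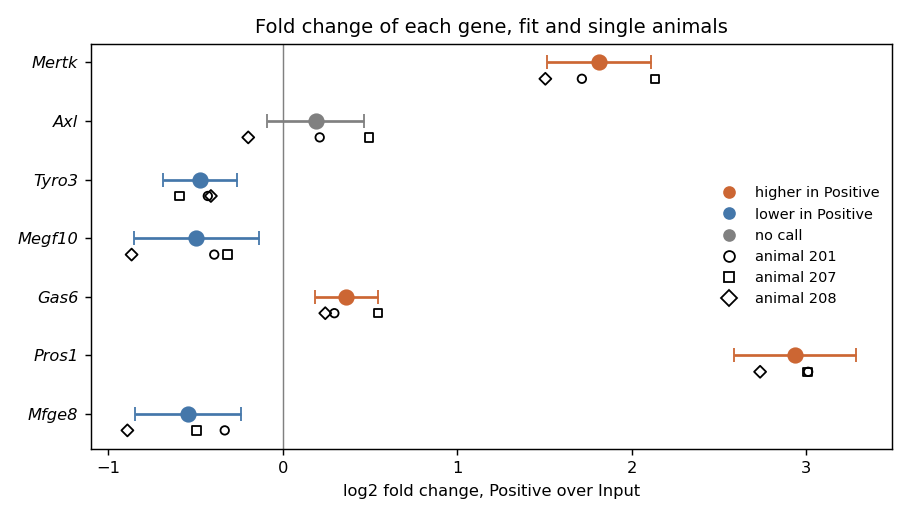
Log2 fold change of Positive over Input (x axis) for each gene (y axis), with the fitted value and its 95% interval as filled points and bars and the single animals as open symbols below. The interval of Axl spans 0, those of Mertk and Pros1 lie above 1, and animal 208 is the lowest of the 3 animals for every gene but Tyro3.

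The 3 receptors were set side by side per kilobase of transcript, since longer transcripts gather more reads. In Input, Tyro3 made up 63.4% ± 0.96 (SD, n = 3) of the summed reads per kilobase of the 3 receptors, Axl 20.2% ± 0.95 and Mertk 16.3% ± 0.48. In Positive, Mertk was the largest with 45.1% ± 5.5, followed by Tyro3 with 36.7% ± 6.5 and Axl with 18.1% ± 1.4. The share of Mertk was 15.9%, 16.8% and 16.3% in the Input libraries and 42.4%, 51.5% and 41.5% in the Positive libraries, so the groups stood far apart. The difference of 28.8 percentage points had an exact permutation p of 0.1 (two-sided, n = 3 against 3), which is the smallest that 3 libraries against 3 allow, and the exact test therefore could not pass 0.05. In animal 208 Tyro3 was still marginally above Mertk in Positive, with 41.9% against 41.5%. With coding length in place of transcript length the difference in the share of Mertk was 27.3 points.

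**Figure D3:**
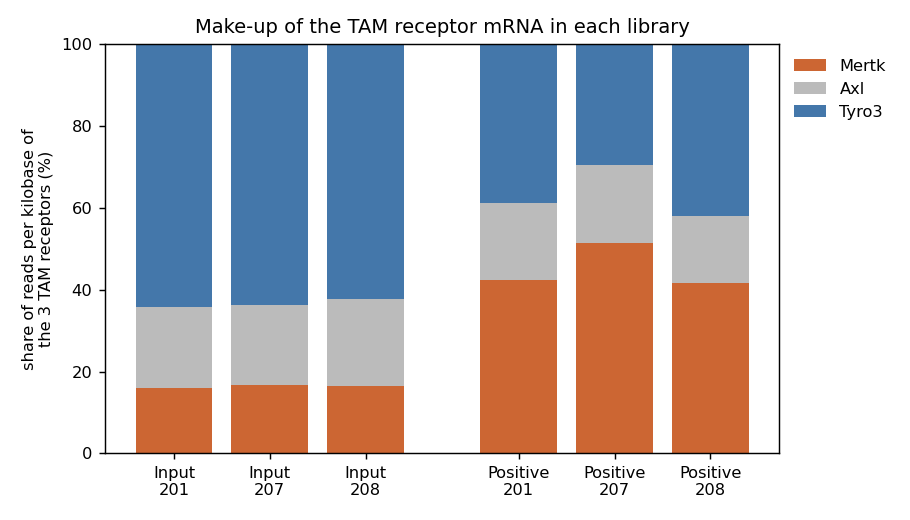
Share of Mertk, Axl and Tyro3 in their summed reads per kilobase of transcript (y axis, percent) in each of the 6 libraries (x axis). Tyro3 fills 62.4% to 64.2% of the Input bars, whereas Mertk takes 41.5% to 51.5% of the Positive bars and the share of Axl stays between 16.6% and 21.3% in all.

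Ratios of reads of 2 genes within a library do not depend on how libraries are scaled, and 6 pairs were compared. Mertk to Tyro3 was 0.238, 0.255 and 0.253 in Input and 1.05, 1.69 and 0.956 in Positive, a log2 difference of 2.26. Mertk to Axl went from between 0.775 and 0.872 to between 2.28 and 2.72, a log2 difference of 1.62. The change in Mertk was thus larger than that in Axl in every animal, including animal 208. Axl to Tyro3 rose by 0.65 on the log2 scale, with 0.292 to 0.326 in Input and 0.378 to 0.620 in Positive, so that Axl gained on Tyro3 in all 3 animals although Axl itself was not called. Mertk to Megf10 rose by 2.31 on the log2 scale. For each of the 6 pairs the libraries of the fractions did not overlap, and the exact permutation p was 0.1, also after Benjamini-Hochberg adjustment over the 6 pairs, the smallest p possible with 3 against 3.

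The ligands Gas6 and protein S, encoded by Pros1, are related proteins, and protein S also serves as an anticoagulant cofactor in plasma. Gas6 (ENSMUSG00000031451, chr8:13465374-13494490, minus strand) had 2540, 2329 and 2397 scaled reads in the Input libraries and 3119, 3403 and 2840 in the Positive libraries. All 3 Positive libraries were above all 3 Input libraries, by a modest amount. The mean rose from 2422 ± 107 to 3121 ± 282, a log2 fold change of 0.37 ± 0.08 with an adjusted p-value of 0.00333 (edgeR). Gas6 overlaps 3100 bases of Tmem255b on the other strand, which had only 24.3 to 53.2 reads per library. Those reads were at most a small part of the reads of Gas6, and the counting used strand.

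Pros1 (ENSMUSG00000022912, chr16:62854307-62929346, plus strand) had 218.3, 265.0 and 201.4 in the Input and 1768, 2139 and 1348 scaled reads in the Positive libraries. It was low in every Input library and high in every Positive library, with animal 207 the highest in both. The mean rose from 228.2 ± 32.9 to 1752 ± 396, which was 7.66-fold, a log2 fold change of 2.94 ± 0.16 with an adjusted p-value of 1.24e-08 (edgeR). It was the only one of the 7 genes to pass the 5-fold enrichment that the study's methods used for marker genes, which 3.75% of all genes tested passed, and it ranked 428 of 15343 by fold change. The log2 ratio within the animals was 3.01, 3.01 and 2.74. The microglial, border macrophage and endothelial sums given above rose in the same libraries, and their part in the level of Pros1 was not tested. Without the Positive library of animal 208 the log2 fold change was 3.10.

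The balance between the ligands shifted with these changes. Reads of Gas6 outnumbered those of Pros1 by 11.6, 8.79 and 11.9 to 1 in the Input libraries and by 1.76, 1.59 and 2.11 to 1 in the Positive libraries. Gas6 remained the higher ligand in each library, also per kilobase of transcript, but by a much smaller margin in Positive, and the log2 difference of the ratio was -2.56 with the exact permutation p of 0.1 that is the floor for n = 3 against 3.

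Mfge8, also called lactadherin, is secreted and binds integrins rather than TAM receptors. Mfge8 (ENSMUSG00000030605, chr7:79133768-79149060, minus strand) had 2728, 2409 and 2414 scaled reads across the Input libraries and 2167, 1712 and 1303 across the Positive ones. All Positive libraries were below all Input libraries, with animal 208 the lowest. The mean went from 2517 ± 183 to 1727 ± 432, or 68.6% of Input, a log2 fold change of -0.54 ± 0.14 with an adjusted p-value of 0.00708 (edgeR). Mfge8 and Megf10 both stand in the study's cell-sorting list for astrocytes, whose 138 genes tested had a median log2 fold change of -0.42 and quartiles of -0.58 and -0.29. Their own values of -0.54 and -0.50 lay between that median and the lower quartile. The ratio of Mfge8 to Gas6 was 1.07, 1.03 and 1.01 in Input and 0.695, 0.503 and 0.459 in Positive, so the 2 bridging proteins were level in reads in the Input and Gas6 led in every Positive library.

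Mertk stands in the study's cell-sorting list for microglia, and its enrichment was low for that list. Of the 235 genes of the list tested, 200 had a higher fold change than Mertk and 34 a lower one. The median of the list was 3.65 on the log2 scale with quartiles of 2.50 and 4.32, against 1.81 for Mertk. Pros1, at 2.94, is not in that list.

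Set in order per kilobase of transcript, Mfge8 was the highest of the 7 genes in Input with 1080 ± 78.3 scaled reads per kilobase, followed by Gas6 with 950.6 ± 42.1 and Tyro3 with 597.2 ± 49.9. Axl (190.0 ± 13.9), Mertk (153.6 ± 7.30), Pros1 (69.1 ± 9.97) and Megf10 (46.9 ± 3.50) followed. No neighbours in the Input order overlapped in their libraries. In Positive, Gas6 led with 1225 ± 110.5 scaled reads per kilobase, and Mfge8 (741.3 ± 185.6), Mertk (538.9 ± 123.0), Pros1 (530.3 ± 119.7) and Tyro3 (430.1 ± 53.0) came next. Neighbours among these 4 overlapped in their libraries and were not separated by their spread, and Pros1 and Mertk changed places when coding length was used. Axl (216.5 ± 42.8) and Megf10 (33.2 ± 7.99) were last, each apart from its neighbours.

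**Figure D4:**
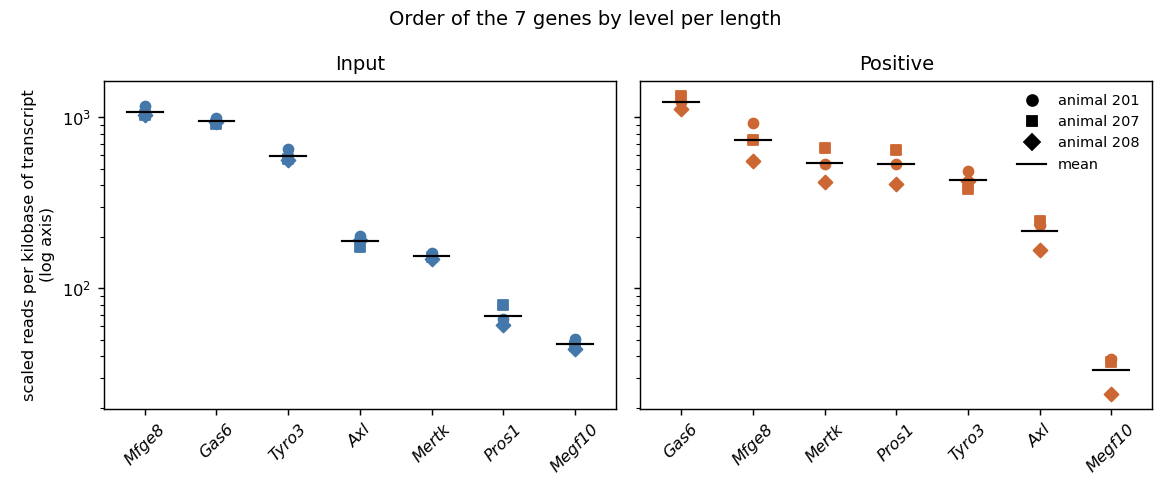
Scaled reads per kilobase of transcript (y axis, log scale) of the 7 genes, ordered from high to low (x axis) within Input and within Positive, with a point per animal and a line at the mean. Pros1 moves from the sixth place in Input, at 69.1, to a group with Mertk, Tyro3 and Mfge8 in Positive, at 530.3.

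The rest of the uptake machinery was described by lists of genes of known function. They were written with earlier results of these data known, so their counts and medians describe the lists and test nothing. Counts of calls stand beside the 46% of all genes tested that were called (24% higher and 22% lower). Of 24 other engulfment receptors 18 could be tested, of which 15 rose and 1 fell in Positive, with a median log2 fold change of 3.11 beside -0.01 over all genes. Among those that rose, Cd36, Cd300a and Msr1 averaged 19.1, 19.3 and 7.47 scaled reads in Input. They passed the filter at 20 scaled reads through Positive alone, so the filter set their direction. The integrin subunit Itgb5, which pairs with alpha v to receive Mfge8, went from 955.3 to 9831 scaled reads, a log2 fold change of 3.36 ± 0.14 (edgeR adjusted p-value 1.09e-09). Its partner Itgav rose by only 0.37 ± 0.11, and Itgb3 by 2.86 ± 0.21. The call of Itgav was lost without the Input library of animal 208 (0.31) or the Positive library of animal 207 (0.26), and with limma on the deposited log2 values (0.34). The 2 beta chains that can receive Mfge8 were therefore higher in the same libraries in which Mfge8 itself was lower. Itgam, a chain of complement receptor 3, had the largest rise of the list with 4.72 ± 0.15, and Trem2, a lipid receptor of microglia, rose by 4.31 ± 0.14. Itgam is also among the microglial markers counted above, so its rise is not a separate result. Lrp1, a receptor for apolipoproteins that many brain cells carry, rose by 0.25 ± 0.09, a call that held in 7 of 15 alternative fits and was lost without any 1 library other than the Positive library of animal 208 (lowest log2 fold change 0.20). Megf11, a relative of Megf10, was the gene of the list that fell, with a log2 fold change of -0.76 ± 0.18, and Adgrb1, a phosphatidylserine receptor also called Bai1, had -0.14 ± 0.10 and was not called.

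Of 15 other bridging proteins tested, 6 were higher and 2 lower, with a median of 0.37. The share called was 53.3%, near the 46% of all genes tested. Without the Positive library of animal 208, 9 were higher and 3 lower with a median of 0.58, and the median was 0.21 when the Positive library of animal 201 was left out. The 3 chains of complement C1q, which tags synapses and dying cells, were the extreme, with log2 fold changes of 4.61 for C1qa, 4.69 for C1qb and 4.78 for C1qc. C1qa is also among the microglial markers counted above. Clu, an astrocyte-rich apolipoprotein, went the other way with -0.62 ± 0.12, close to the value of Mfge8. The mean of Apoe was 34827 scaled reads in Input against 41207 in Positive, and it was not called (log2 fold change 0.24 ± 0.13, edgeR adjusted p-value 0.141), but like Axl it was called without the Positive library of animal 208 (0.39, edgeR adjusted p-value 0.000547). Secreted bridging proteins were thus spread over the whole range from C1q, above Pros1, down to Clu, below Mfge8.

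Behind the receptors, 14 of 23 genes of engulfment signalling were higher in Positive and 0 lower, with a median of 0.40. The share called was 60.9%, beside 46% of all genes tested. Vav1, an exchange factor of blood cell lineages that TAM receptors engage, rose by 4.58 ± 0.16, while its relative Vav2 rose by 1.53 ± 0.13 and Vav3 had 0.10 ± 0.17. Rac1, the GTPase that drives the phagocytic cup and is found in all cells, rose by 0.40 ± 0.08, and its blood cell relative Rac2 by 3.85 ± 0.25. Gulp1, an adaptor of Megf10 and Lrp1, had -0.40 ± 0.26 and was not called. Of 14 genes for output, shedding and turnover of TAM receptors, 11 were higher and 0 lower, with a median of 0.68. They included Adam17 (1.64 ± 0.13) and Adam10 (0.91 ± 0.09), the proteases that shed Mertk and Axl from the cell surface, and Ifnar2 (1.66 ± 0.16), a chain of the interferon receptor with which TAM receptors signal. Socs1, a brake on cytokine signalling that they induce, was near the lower limit of the table with means of 21.2 and 14.1 scaled reads, and was not called.

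Gas6 and protein S need vitamin K, and the genes of that cycle did not move as 1 group. Of 7 genes 2 were higher, 3 lower and 2 not called, with a median of -0.42. Vkorc1, the vitamin K epoxide reductase that warfarin blocks, had 102.8, 103.1 and 102.7 scaled reads in Input and a log2 fold change of 1.05 ± 0.16 (edgeR adjusted p-value 0.00014). Its paralog Vkorc1l1 went the other way with -0.52 ± 0.09, and Ggcx, the carboxylase itself, had -0.42 ± 0.14, a call lost without any 1 of the Input libraries or the Positive library of animal 201 (-0.44 to -0.39). Calu, an inhibitor of the cycle, rose by 0.42 ± 0.09. The 2 reductases therefore changed in opposite directions. Of the other proteins with a Gla domain 5 of 12 were tested, with 2 higher, 2 lower and a median of 0.39. Coagulation factor F9 had 2 to 4 raw reads in the Input libraries and 37, 58.7 and 52 in the Positive libraries, and no fold is given for so low an Input. F9 is counted among the genes that were higher and in the median. It passed the filter through Positive alone, so the filter set its direction. Mgp, a matrix protein of vessels, had a log2 fold change of 0.67 ± 0.22, not called without the Input library of animal 201 (0.52) or 208 (0.63), without the Positive library of animal 201 (0.38) or with limma on the deposited log2 values (0.64), and Prrg1 had -1.34 ± 0.25.

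Among nuclear receptors linked to the control of Mertk and Axl, the glucocorticoid receptor Nr3c1 rose by 0.61 ± 0.08 on the log2 scale. The liver X receptor Nr1h3 had -0.22 ± 0.26 and Nr1h2 0.12 ± 0.11, and neither was called, although Nr1h2 was without the Input library of animal 201 (0.26). Among 14 genes that expose or retain phosphatidylserine, 4 were higher and 4 lower (57.1% called, beside 46% of all genes tested). Their median was 0.09, so this list was spread evenly on both sides. The scramblase Xkr8, which caspases switch on, rose by 0.76 ± 0.18, and the flippase Atp11b had -0.50 ± 0.09.

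**Figure D5:**
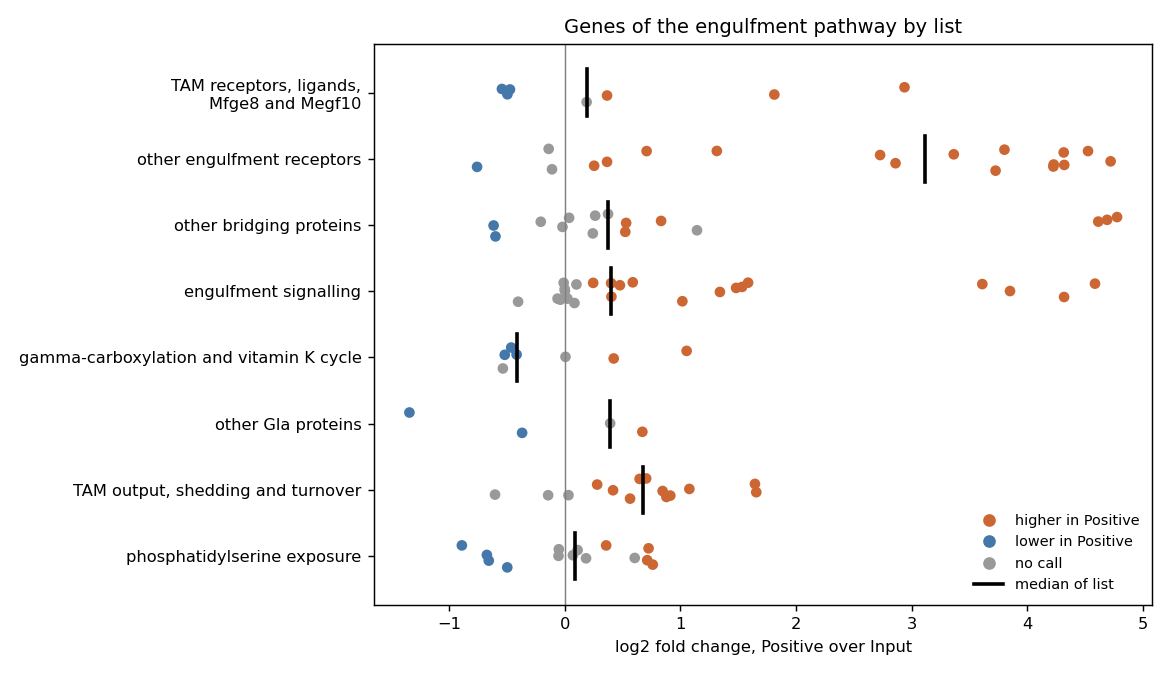
Log2 fold change of Positive over Input (x axis) of each gene tested in the lists of the uptake machinery (y axis), with a point per gene, coloured by its call, and a bar at the median of each list. The point of F9 is left out for its low Input, but the bar of its list, at 0.39, includes F9. Other engulfment receptors lie far to the right, with a median of 3.11, while the vitamin K cycle has its median at -0.42.

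The genes most like each of the 7 were found by the distance between their profiles over the 6 libraries, among 12122 genes whose scaled reads averaged 100 or more. Mertk was nearest to Zc3hav1 (log2 fold change 1.89) and Plxnb2 (1.84), and Pros1 to Gm38317 (2.98) and Gngt2 (3.06). Axl was nearest to Cers2 (0.24) and Agtrap (0.23), neither of which was called. Gas6 was nearest to Txnl1 (0.34) and Kdm3a (0.34), Tyro3 to Wnk2 (-0.45) and Nars2 (-0.42), Mfge8 to Slc27a1 (-0.59) and Mlc1 (-0.54), and Megf10 to Plin3 (-0.47) and P3h3 (-0.45). The distances ran from 0.0698 log2 units for Gas6 and Txnl1 to 0.214 for Pros1 and Gngt2, so the pattern of Pros1 had the least close neighbours. None of the 7 genes was among the 2 nearest of another.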

How the data were processed

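Groups and animal numbers came from the labels, and each of the 3 animals gave both fractions. Libraries were directional. Per the study's methods, the authors trimmed reads, aligned them to mm10 in Strand NGS using strand and normalized with DESeq. The deposited raw columns are expected counts per gene (estimated counts that need not be whole; 21.16% to 27.49% of the values per library were whole, to within 0.01), and among whole values under 60, 64.1% to 68.56% were even, so a read pair may count as 2 reads. The deposited normalized values are log2 values, relative to the Input median of each gene. The table held genes that reached 20 raw reads throughout Input or throughout Positive. Isoforms were not analysed here.

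Expected counts were rounded, and edgeR 4.0.16 in R 4.3.3 gave the main test, its quasi-likelihood test (RLE scaling, no block, Benjamini-Hochberg over 15343 genes, threshold 0.05), after 45 genes not above 20 scaled reads throughout Input or throughout Positive had been removed. Standard errors (SE) came from the F statistic and intervals cover 95%. Alternatives used TMM, total counts, DESeq2 1.42.0, other filters, limma 3.58.1 on the deposited log2 values, a block for animal and each library left out. The authors' size factors and halved counts were added after the data were seen. Exact permutation tests (two-sided) used scipy 1.17.1. Lengths were those of GENCODE M21, whose positions of the 7 genes equal those of the deposited table, and promoters came from RefSeq (GRCm38.p6).

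The same number marked the same animal, so the libraries were paired by design, and the deviations of paired libraries from their group means correlated at 0.194, 0.0584 and 0.12 across genes. In 3 simulations with 200 changed genes and about 14998 genes tested, 85.9% of changes of 1 on the log2 scale and 100% of changes of 2 were called, and 6.93% of the calls were false. The simulated libraries were drawn independently and few genes changed, whereas the real libraries were paired and 7053 genes were called. These rates may therefore not hold for the data.

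The members and all gene lists were chosen with earlier results of these data known. Named genes were the 7 members, those of each pathway list with the 4 highest means or the most extreme fold changes, the 2 most abundant of each marker list and the 2 most like each member; Itgav, Itgb3, Trem2, Vav2, Vav3, Rac2, Adam10, Adam17, Nr1h2 and Nr1h3 were named after their values were seen, and some genes the rule took, with the counts of 1 list, are not reported here. Protein sequences were not compared. Reads carried no molecular identifiers, so depth limits cover counting error only.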

Additional observations from a re-analysis of the deposited data

How the results depend on the processing

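Across 15 alternative fits, Mertk, Tyro3, Gas6, Pros1 and Mfge8 kept their direction and call in all 15, and no member changed sign. Axl was called in 1 of 15, without the Positive library of animal 208. Megf10 was called in 11 of 15 and was lost with limma (-0.54, adjusted p 0.0513) and without each of 3 libraries. With 1 library left out, the log2 fold change ran from 0.084 to 0.344 for Axl and from -0.62 to -0.31 for Megf10, and the number of vitamin K genes called fell from 5 to between 3 and 4, while astrocyte markers called ran from 1 to 7. The number of other bridging proteins called ran from 7 to 12 and their median from 0.21 to 0.58. The median of the phosphatidylserine list ran from -0.0011 to 0.17, changing sign without the Positive library of animal 207, and was 0.013 with total counts. At a mean of at least 100 the vitamin K median was -0.21, and of the other Gla genes 2 were tested and called, with a median of 0.15. With halved counts the Gla median was 0.0198, against 0.39 in the reported fit. The mural marker median changed sign from -0.24 to 0.036 without the Positive library of animal 208, and the neuronal one from 0.064 to -0.013 with total counts and to just below 0 without that library. The causes were not tested, apart from the fewer genes tested under the stricter filter.

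With the animal as a block, since the libraries were paired, 7567 genes were called in place of 7053. Among the members 3 were again higher and 3 lower, with adjusted p-values of 0.201 for Axl and 0.00592 for Megf10, and the block changed no call of a member. It raised the calls among other bridging proteins from 8 to 11, astrocyte markers from 3 to 5, fibroblast markers from 3 to 4 and mural markers from 1 to 2. With total counts 3048 genes were higher and 4281 lower, against 3684 and 3369 in the reported fit. The exact permutation tests ignored the pairing, and with 3 libraries against 3 such a test cannot go below 0.1.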
